A study of Mus musculus with 72 samples.

Results

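Radiation was added to bintrafusp alfa in mice carrying 4T1 tumours, and the tumours of these mice are compared here with tumours of mice that received bintrafusp alfa alone. The members are the 9 mice given bintrafusp alfa with radiation (BART) and the 9 given bintrafusp alfa without it (BA), chosen by the treatment group in the sample labels. They account for 18 of 36 mice and, because each tumour RNA was read with 2 amplicon panels, for 36 of 72 libraries. All mice were female BALB/c, 6 to 12 weeks old, and bore tumours of 4T1, a mammary carcinoma cell line derived from that strain. Thigh muscle was the injection site, on day -6, although the tissue label reads orthotopic. Treatment came on day 0 and tumours were taken on day 6. BA mice received 492 µg of bintrafusp alfa, labelled M7824, and BART mice received it together with radiation, whose dose and schedule no source used here gives. Of the other 18 mice, 9 received 400 µg of an isotype control antibody (control) and 9 radiation (RT), and by the series design RT mice also received the isotype antibody, with no amount stated for them. They are used only to set the change with radiation beside that seen without bintrafusp alfa. Within the comparison of BART with BA every mouse had received bintrafusp alfa, so what differs by label is radiation alone.

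Bintrafusp alfa joins an antibody against PD-L1, the ligand of the inhibitory T cell receptor PD-1, to a receptor ectodomain that captures free TGF-β. Ionising radiation breaks DNA, activates p53 and its target p21, and can release self DNA and RNA into the cytoplasm, where sensors switch on type I interferon and the antiviral genes that depend on it. Radiation also kills lymphocytes readily, while monocytes and neutrophils can enter an irradiated tumour along chemokine gradients. 4T1 tumours are known for a large infiltrate of myeloid cells.

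Values are CPM, the counts of a gene relative to its library's total, scaled for each panel on its own, and compare a gene between mice but not genes with each other. Panel 1 libraries held 959532 to 1763286 counts in BA mice and 1756429 to 2178557 in BART mice, and panel 2 libraries 314621 to 641203 and 591551 to 821436, so BART tumours were read more deeply. Of 1224 genes on the panels 1038 had enough counts to be tested. The carcinoma marker Epcam, an epithelial adhesion molecule, lay between 4172 and 10699 CPM in all 18 tumours, and the common leukocyte antigen Ptprc between 523 and 981 CPM. Skeletal muscle was represented by Myod1, a muscle lineage factor, at 14.9 to 393 CPM, and by Mb, which encodes myoglobin. Summed, these 2 genes had 347 to 3736 CPM in BA and 500 to 5680 CPM in BART tumours. In these bulk tumours, fewer cells of a type and less RNA per cell cannot be told apart.

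The first principal component of the 18 tumours held 49.9% of the variance of log2(CPM + 1) and separated the groups, with BA mice at -16.1 to -5.48 and 8 of the BART mice at 3.68 to 16.9. BART mouse 40 lay between them, at -1.18. This mouse was the highest of its group in 15 of 17 tested T cell markers, 16 of 18 cytotoxic and natural killer cell genes and 5 of 5 class II genes, against 172 of all 1038 tested genes. BART mouse 45 was the highest in 5 of 7 neutrophil chemoattractants and growth factors, 6 of 9 matrix genes and both muscle markers, against 24.5% of all tested genes. Results that rest on these mice are given with and without them.

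**Figure D1:**
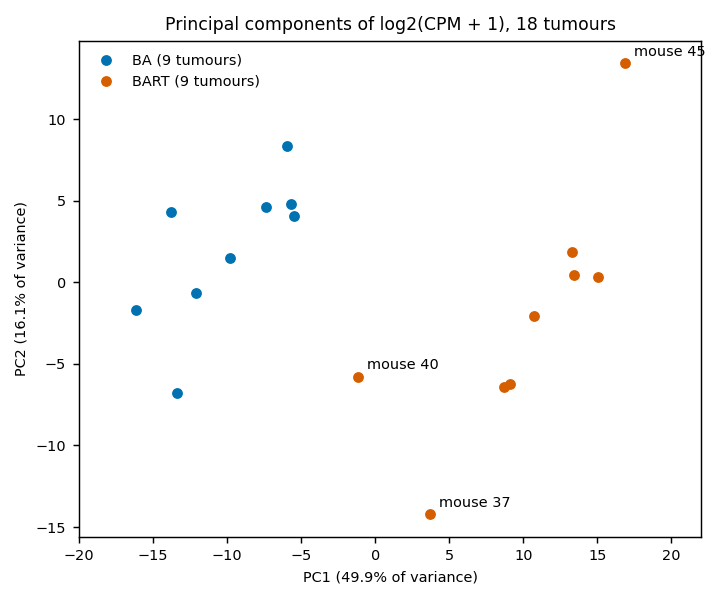
Each point is a tumour, placed by its first (horizontal) and second (vertical) principal component of log2(CPM + 1), in blue for BA and orange for BART. The BA tumours sit at -5.48 or below on the horizontal axis and 8 BART tumours at 3.68 or above, with mouse 40 at -1.18.

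Radiation on top of bintrafusp alfa changed 555 of 1038 genes (53.5%; edgeR quasi-likelihood test, Benjamini-Hochberg adjusted p below 0.05), of which 281 were higher (27.1%) and 274 lower (26.4%). A gene is called higher, lower or changed below only where it passed this test. Most changes were small, since 45 genes (4.34%) were called and at least 2-fold higher and 53 (5.11%) at least 2-fold lower. The groups did not overlap for 121 genes (11.7%), with every BART tumour above every BA tumour for 68 (6.55%) and below for 53 (5.11%). The balance of directions rests on the scaling. With factors from the 9 reference genes of each panel, 472 genes were higher and 147 lower, and the median over all tested genes was 0.20 on the log2 scale in place of 0.02.

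The antiviral programme of type I interferon was higher in BART than in BA tumours. Of 15 tested members of this list 11 rose and 0 fell, and the median log2 fold change was 0.98, against 0.02 over all tested genes. Oasl1, of the oligoadenylate synthetase-like family, ranged from 129 to 229 CPM in BA tumours, with a median of 191, and from 980 to 1494 CPM in BART tumours, with a median of 1151. Every BART tumour was above every BA tumour, and the rise was 6.39-fold (log2 fold change 2.68, SE 0.11, edgeR adjusted p = 8.48e-21). Ifit3, which binds viral RNA complexes with its relatives, went from 73.3, 206 and 333 CPM (lowest, median and highest of the BA tumours) to 612, 989 and 1564 CPM. Those groups were also apart (log2 fold change 2.20, SE 0.22, edgeR adjusted p = 7.06e-10). Reads of Ifit3 may include those of its near copy Ifit3b, and the Oas1 genes share sequence in the same way.

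Some promoters of these genes carry letters of the interferon response element, which factors activated by interferon bind. Those of Ifit3, Oas1a and Oas3 are shown because these genes belong to the list above, and that of Cxcl10, a member of the interferon-γ and lymphocyte chemoattractant lists, because the chemokine is a known interferon target. The letters searched were GAAA, any 2 bases, and GAAA again. They were looked for on both strands from 250 bases before to 50 bases after each start site in the RefSeq promoter table (GRCm38.p6), and matches may overlap. They occurred for 3.99% of the 27025 genes of the table, a gene counting if any of its promoters held them. Of the 15 list members 10 had an entry and 7 of those held the letters, and because fewer than 80% of members had an entry that share is not set against other genes. In the following stretches of 50 bases, read in the direction of the gene, capitals mark a match or its reverse complement. The Oas1a stretch also holds an overlapping match that is not capitalised in full.
Ifit3, chr19:34583353-34583402, + strand: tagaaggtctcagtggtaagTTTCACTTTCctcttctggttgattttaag
Ifit3, chr19:34583387-34583436, + strand: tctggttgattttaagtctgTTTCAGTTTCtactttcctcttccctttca
Oas1a, chr5:120907510-120907559, - strand: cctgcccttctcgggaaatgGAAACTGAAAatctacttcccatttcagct
Oas3, chr5:120777705-120777754, - strand: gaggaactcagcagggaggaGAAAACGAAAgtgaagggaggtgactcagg
Cxcl10, chr5:92349073-92349122, - strand: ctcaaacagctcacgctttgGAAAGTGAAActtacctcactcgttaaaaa
Oasl1 and Irf7 had an entry without a match. A match is a description of the letters in the window.

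The genes behind these promoters differed in size of change. Oas3, which makes the messenger that activates RNase L, had 39.8, 108 and 165 CPM in BA and 187, 313 and 566 CPM in BART tumours, with no overlap (log2 fold change 1.57, SE 0.23, edgeR adjusted p = 1.17e-06). Oas1a rose less, by 0.97 on the log2 scale. Cxcl10, a chemokine for activated T cells, rose by 0.98 (edgeR adjusted p = 0.029), and its adjusted p was 0.0543 without BA mouse 11, 0.0518 without BA mouse 14 and 0.0569 without BART mouse 45. Oas3 and Oas1a were named after their values were seen.

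Other genes of the interferon system moved in the same direction. Irf7, the factor that amplifies interferon production, had 218, 468 and 641 CPM in BA and 1036, 1679 and 2872 CPM in BART tumours (log2 fold change 1.79, SE 0.19, edgeR adjusted p = 3.89e-09). Oas2 rose by 1.93 and Ch25h, a cholesterol hydroxylase with antiviral activity, by 2.31, both without overlap. Ddx58, the RNA sensor RIG-I, rose by 0.98, and the cytoplasmic DNA exonuclease gene Trex1 by 0.58. The list of nucleic acid sensing and interferon signalling genes went both ways, with 6 of 14 higher, 3 lower and a median of 0.08. Over all tested genes 27.1% were higher and 26.4% lower. Irf3, the factor that the sensors activate, was among the list members that fell, by 0.67 (SE 0.09, edgeR adjusted p = 2.12e-07).

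**Figure D2:**
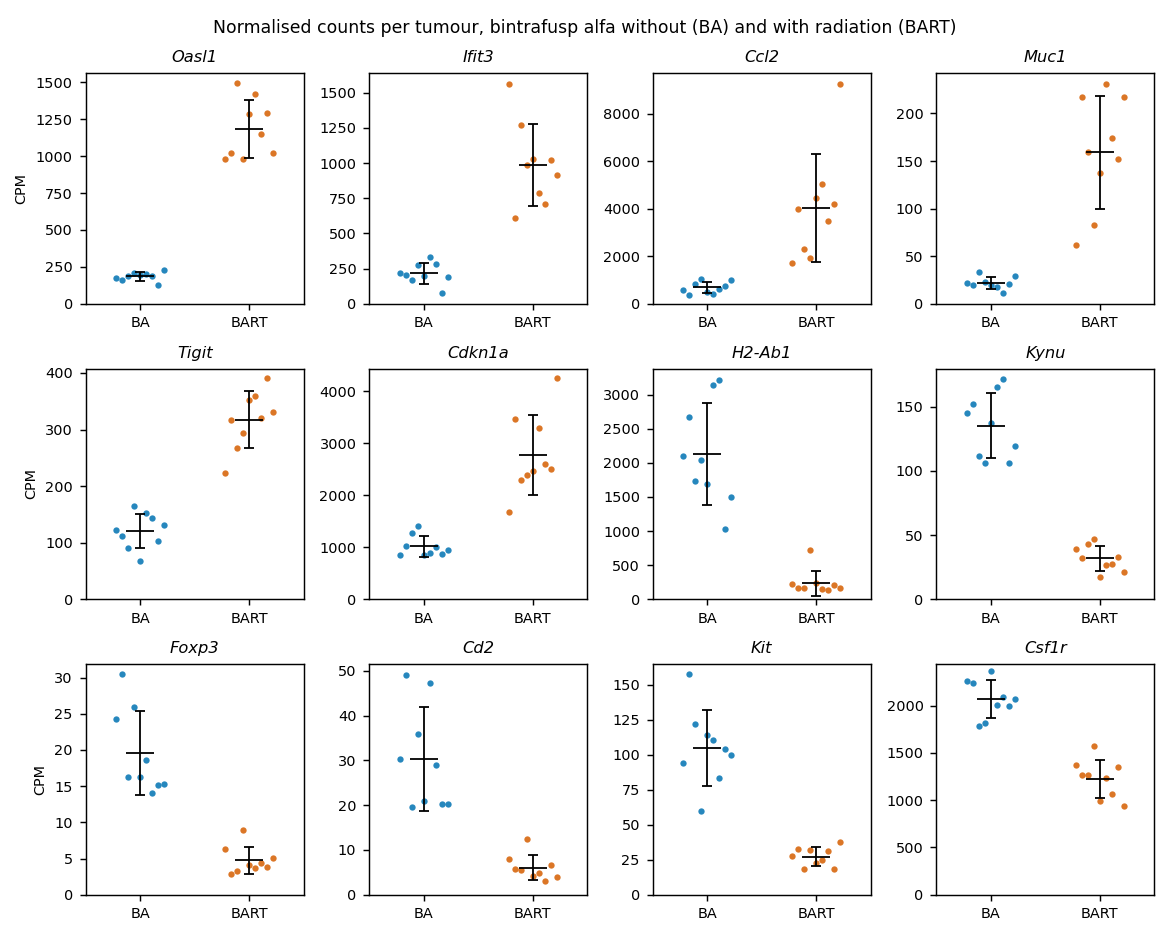
Each panel plots the CPM of one gene on a linear axis from 0, with one point per tumour for BA (blue) and BART (orange), and the mean with its SD in black (n = 9). In Oasl1 the BART tumours sit between 980 and 1494 CPM, above all BA tumours, while in H2-Ab1 mouse 40 stands at 718 CPM above the other BART tumours.

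Chemokines that draw monocytes and neutrophils were also higher in BART tumours. Of 11 tested inflammatory myeloid cytokines and chemokines 9 rose and 0 fell, with a median of 0.82. On the list of neutrophil chemoattractants and growth factors 6 of 7 rose and 0 fell, with a median of 0.89. That list also holds Csf1, a growth factor of monocytes and macrophages, which rose by 0.53. Ccl2, the principal attractant of monocytes, had 374, 616 and 1059 CPM in BA and 1722, 3985 and 9272 CPM in BART tumours. The groups were apart, and the rise was 5.91-fold (log2 fold change 2.56, SE 0.26, edgeR adjusted p = 8.78e-10). Ccl7, a second ligand of the same receptor, rose by 2.39 (SE 0.30) without overlap. Ccl5, which attracts T cells and monocytes, went from 126, 196 and 357 CPM to 586, 997 and 1062 CPM (log2 fold change 2.09, SE 0.19, edgeR adjusted p = 4.98e-11). Ccl3 and Ccl4, which attract monocytes and T cells, rose by 1.59 and 1.83, and in each 8 of 9 BART tumours were above every BA tumour. Of the CXCR2 ligands, which attract neutrophils, Cxcl3 rose by 1.84, Ppbp by 1.29, Cxcl5 by 1.07 and Cxcl1 by 0.89. Without BART mouse 45 the rise of Cxcl5 was 0.69. Only for Cxcl1 among those 4 did the groups not overlap. Cxcl12, a stromal ligand of CXCR4, rose by 1.18 (edgeR adjusted p = 0.0119), and by 0.86 without BART mouse 45 (adjusted p = 0.0536). That mouse held the highest value of Ccl2, Ccl7, Ccl3, Ccl4 and Cxcl5 in its group, and without it the 2 lists had 8 and 6 members higher.

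The receptors for chemokines went the other way. Of 10 tested receptor genes 7 fell and 0 rose, with a median of -0.59. Ccr2, the receptor for Ccl2 and Ccl7 and a marker of inflammatory monocytes, had 1079, 1131 and 1360 CPM in BA and 492, 591 and 880 CPM in BART tumours, with no overlap (log2 fold change -0.92, SE 0.15, edgeR adjusted p = 3.18e-06). Ccr7, which guides dendritic cells and naive T cells to lymph nodes, fell from 32.8, 55.3 and 81.7 CPM to 11.1, 19.2 and 26.6 CPM, also without overlap (log2 fold change -1.50, SE 0.21, edgeR adjusted p = 5.77e-07).

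The p53 target Cdkn1a, which encodes the cell cycle inhibitor p21, was higher in the irradiated tumours. It had 859, 945 and 1409 CPM in BA and 1673, 2497 and 4260 CPM in BART tumours, with no overlap (2.73-fold, log2 fold change 1.45, SE 0.19, edgeR adjusted p = 1.76e-07). Trp53 itself rose by 0.37 (SE 0.06), again without overlap. The list of 8 p53 targets as a whole had 2 higher, 2 lower and a median of 0.00. These counts are near the shares over all tested genes, 27.1% higher and 26.4% lower.

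Of 4 tested epithelial and mammary carcinoma markers 2 rose, 1 fell and 1 was not called. Muc1, an epithelial mucin, had the largest rise of all genes called with a mean of at least 10 CPM in either group. It went from 10.9, 20.9 and 33.4 CPM to 61.7, 159 and 231 CPM, without overlap (7.27-fold, log2 fold change 2.86, SE 0.23, edgeR adjusted p = 7.06e-12). Msln, the adhesion protein mesothelin, rose from 322, 516 and 658 CPM to 997, 1268 and 1571 CPM (log2 fold change 1.41, SE 0.13, edgeR adjusted p = 1.97e-10). Epcam fell by 0.45 (SE 0.11, edgeR adjusted p = 0.000723), with overlap.

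The class II antigen presentation genes of the MHC were much lower in BART tumours. Of 5 tested members 4 fell and 1 rose, and the median log2 fold change was -2.31. The rise, of the peptide exchange gene H2-DMa, was 0.37 (edgeR adjusted p = 0.0401) and was not called without mouse 40. H2-Ab1, which encodes the beta chain of I-A, had 1027, 2037 and 3221 CPM in BA and 135, 165 and 718 CPM in BART tumours. The groups did not overlap, and the gene was 8.93-fold lower (log2 fold change -3.16, SE 0.31, edgeR adjusted p = 7.02e-10). The alpha chain gene H2-Aa fell by 2.98 and Cd74, the invariant chain that occupies the groove, by 2.31, and in each 8 of 9 BART tumours were below every BA tumour. Ciita, the activator of class II genes, went from 80.2, 196 and 363 CPM to 31.3, 46.1 and 201 CPM (log2 fold change -1.63, SE 0.41, edgeR adjusted p = 0.00131). The exception each time was mouse 40, without which the log2 fold change of H2-Aa was -3.46 and that of Ciita -2.11.

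Dendritic cell markers were lower too, with 4 of 5 tested members down, 0 up and a median of -1.12. Ccr7 was one of them. Irf4, a factor of dendritic cells and activated lymphocytes, had 9.37, 13.8 and 23.5 CPM in BA and 1.597, 4.54 and 7.55 CPM in BART tumours, without overlap (log2 fold change -1.52, SE 0.23, edgeR adjusted p = 1.34e-06). Cd83, a protein of mature dendritic cells, fell by 1.12. Pdcd1lg2, which encodes the second PD-1 ligand PD-L2, fell from 52.4, 108 and 196 CPM to 8.53, 11.1 and 48.2 CPM, without overlap (7.27-fold lower, edgeR adjusted p = 2.9e-07). Kynu, an enzyme of tryptophan breakdown, went from 106, 138 and 172 CPM to 17.6, 32.4 and 47.2 CPM and was likewise apart (log2 fold change -2.08, SE 0.18, edgeR adjusted p = 3.7e-11).

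Most T cell markers were lower in BART tumours. Of 17 tested members 14 fell, 0 rose and 3 were not called, with a median of -1.61. Cd2, an adhesion receptor of T and natural killer cells, had 19.5, 28.9 and 49.1 CPM in BA and 3.11, 5.54 and 12.4 CPM in BART tumours, without overlap (log2 fold change -2.31, SE 0.37, edgeR adjusted p = 4.52e-06). Cd3d and Cd3e, chains of the T cell receptor complex, fell by 2.04 and 2.03, and Cd4, the coreceptor for class II, by 2.19, from 6 to 41 counts per library to 1 to 11. Cd8a, the coreceptor for class I, had 0.56, 5.98 and 16.04 CPM in BA and 0, 2.66 and 13.4 CPM in BART tumours. It was not called with all mice (log2 fold change -0.97, SE 0.61, edgeR adjusted p = 0.179) but was without mouse 40 (-1.604, adjusted p = 0.0287). Without that mouse all 17 tested T cell markers were called lower, and with both groups thinned to equal depth 9 were. The summed level of the 17 markers ranged from 239 to 696 CPM in BA and from 118 to 353 CPM in BART tumours, with mouse 40 at 353.

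The cytotoxic and natural killer cell list had 8 of 18 members lower, 2 higher and 8 that did not pass, at a median of -0.60. Prf1, the pore-forming protein perforin, had 27.9, 93.5 and 169 CPM in BA and 8.29, 17.2 and 108 CPM in BART tumours (log2 fold change -1.84, SE 0.44, edgeR adjusted p = 0.000723). Mouse 40 held the highest BART value, 8 of 9 BART tumours were below every BA tumour, and without it the log2 fold change was -2.60. Gzmb, the protease granzyme B, was not called with all mice (log2 fold change -0.77, SE 0.45, edgeR adjusted p = 0.151). Without mouse 40, which had 579 CPM against at most 117 in the other BART tumours, it was -1.52 (adjusted p = 0.0012). Among the natural killer cell receptors, Klrd1 fell by 1.59 and Ncr1 by 1.39, and the cytotoxic granule protein gene Nkg7 fell by 1.39.

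Genes of regulatory T cells went in both directions. Foxp3, the lineage factor, had 14.1, 16.3 and 30.5 CPM in BA and 2.90, 4.15 and 8.94 CPM in BART tumours, with no overlap (4.06-fold lower, log2 fold change -2.02, SE 0.24, edgeR adjusted p = 2.7e-08). These values stand for 18 to 44 and 5 to 18 counts per library. Ctla4, an inhibitory receptor, fell from 15.5, 26.9 and 49.0 CPM to 0, 2.13 and 11.9 CPM and Tnfrsf18, the costimulatory receptor GITR, from 44.2, 74.8 and 111 CPM to 12.4, 18.1 and 26.6 CPM. Both were without overlap, at log2 fold changes of -3.10 (SE 0.44) and -1.90 (SE 0.19). Tigit, an inhibitory receptor found on regulatory T and natural killer cells, went up, from 67.6, 122 and 165 CPM to 223, 321 and 391 CPM, and the groups were again apart (log2 fold change 1.40, SE 0.17, edgeR adjusted p = 2.21e-08). Of the 12 tested genes of the list 5 fell and 2 rose, with a median of -0.31.

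Immune checkpoint and costimulatory genes split by gene, with 16 of 28 lower, 6 higher and a median of -0.54. Icos, an inducible costimulator of T cells, fell by 2.08. Tnfsf4, which encodes OX40 ligand, a costimulator, rose from 2.82, 3.89 and 6.75 CPM to 6.92, 13.9 and 21.1 CPM, without overlap (log2 fold change 1.78, SE 0.25, edgeR adjusted p = 3.61e-07). Vtcn1, the inhibitory ligand B7-H4, rose by 2.07, from 1 to 7 counts per library to 9 to 27. Cd274, which encodes PD-L1, the protein that the antibody arm of bintrafusp alfa binds, had 116, 238 and 506 CPM in BA and 157, 193 and 465 CPM in BART tumours. It was not called (log2 fold change -0.25, SE 0.33, edgeR adjusted p = 0.543), and the groups overlapped over almost the whole range.

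**Figure D3:**
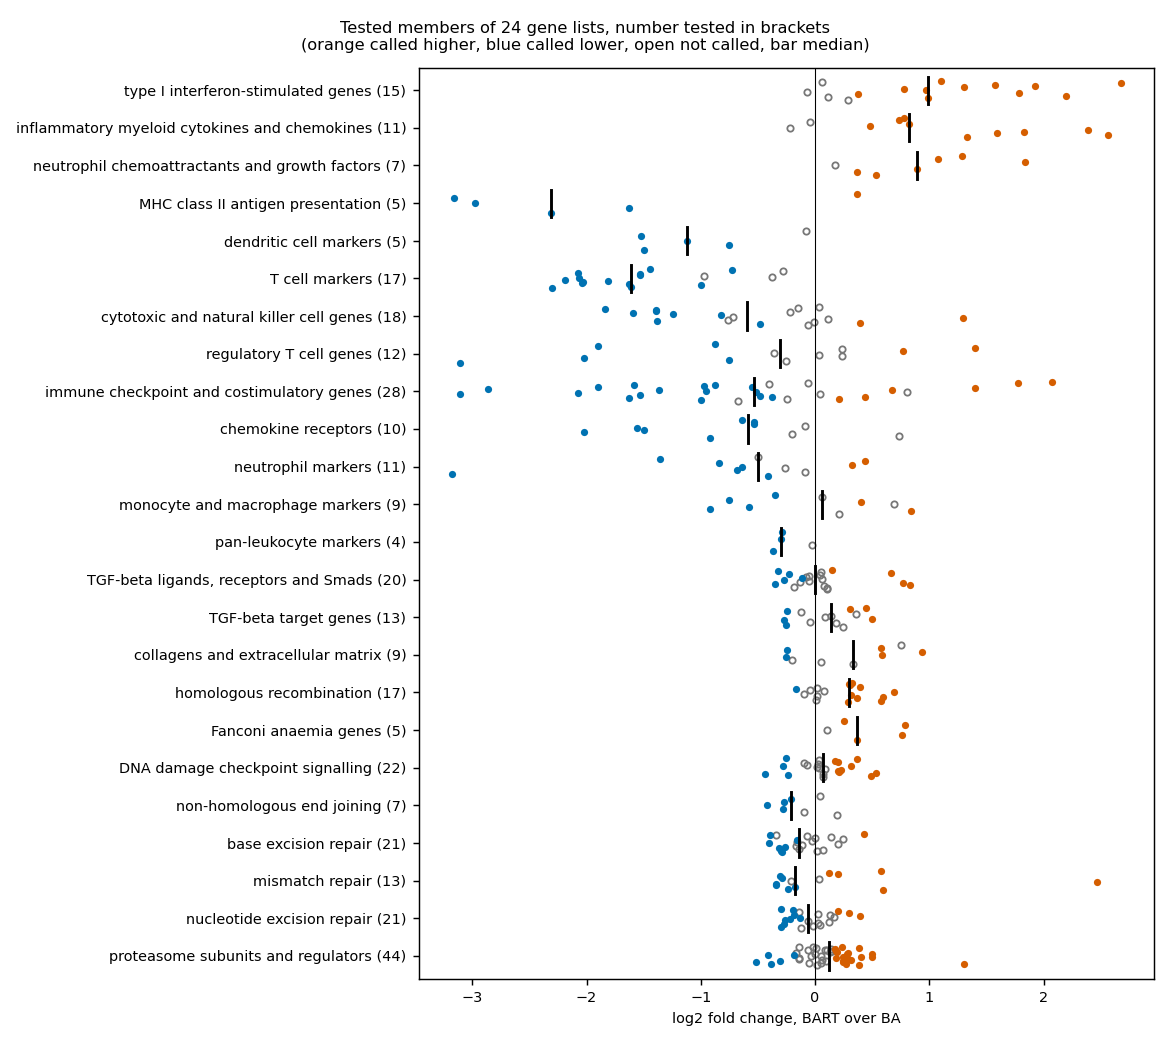
Each point is the log2 fold change of BART over BA (horizontal axis) of one tested member of the list named on the vertical axis, orange where called higher, blue where called lower and open where not called, with a bar at the median. The bar lies at 0.98 for type I interferon-stimulated genes, at -2.31 for class II genes and at -1.61 for T cell markers.

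Myeloid markers did not move together. Adgre1, the macrophage surface protein F4/80, had 194, 268 and 349 CPM in BA and 404, 470 and 532 CPM in BART tumours, with no overlap (log2 fold change 0.84, SE 0.12, edgeR adjusted p = 1.11e-06). Csf1r, the receptor on which monocytes and macrophages depend, went down from 1781, 2066 and 2366 CPM to 938, 1262 and 1572 CPM, also without overlap (log2 fold change -0.75, SE 0.09, edgeR adjusted p = 1.12e-08). Cd14 fell by 0.58 and the low-affinity Fc receptor gene Fcgr3 by 0.69. Of 9 monocyte and macrophage markers 2 rose and 4 fell, with a median of 0.06, and of 11 neutrophil markers 2 rose and 6 fell, with a median of -0.50. Over all tested genes 27.1% rose and 26.4% fell. Ctsg, a protease of immature neutrophil and mast cell granules, had 24.8, 39.6 and 93.7 CPM in BA and 0, 1.74 and 28.3 CPM in BART tumours (log2 fold change -3.17, SE 0.51, edgeR adjusted p = 3.69e-06), and -4.30 without mouse 40. Prtn3, a second protease of these granules, fell by 1.36, whereas Mmp9, a gelatinase, rose by 0.44 and by 0.34 without BART mouse 37 (adjusted p = 0.0642). Kit, the stem cell factor receptor of mast and progenitor cells, fell from 59.8, 104 and 158 CPM to 18.3, 27.7 and 37.4 CPM without overlap (log2 fold change -1.95, SE 0.18, edgeR adjusted p = 1.28e-10). Of 8 tested mast cell, basophil and eosinophil markers, Kit among them, 2 fell, 1 rose and 5 were not called, with a median of 0.04.

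Antibody light chain transcripts were uneven among mice. Igkc ranged from 5.05 to 690 CPM in BA tumours, with a median of 18.7, and from 1.55 to 49.2 CPM in BART tumours, with a median of 5.54. The groups overlapped, and BA mice 11 and 15 had 690 and 525 CPM against at most 32.9 in the other BA tumours. Of 3 tested B lineage markers Igkc alone was called. Its log2 fold change was -3.69 (SE 1.09, edgeR adjusted p = 0.00511), -2.80 without BA mouse 11 and -4.47 without BART mouse 40. The general leukocyte genes fell little beside these. Ptprc was lower by 0.29, Itgb2, the shared chain of leukocyte integrins, by 0.30 and Cd48 by 0.37, and with reference gene factors none of these 3 was called.

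The targets of the TGF-β trap itself were measured on the panels. Tgfb2 had 356, 434 and 575 CPM in BA and 397, 648 and 1123 CPM in BART tumours, with overlap (log2 fold change 0.66, SE 0.17, edgeR adjusted p = 0.00115). On the other panel, which also held the gene, the change was 0.38 (adjusted p = 0.0936). Tgfb1 fell slightly, from a median of 2618 to 2290 CPM (log2 fold change -0.23, SE 0.07, edgeR adjusted p = 0.00819), and by 0.08 with reference gene factors (adjusted p = 0.287). Tgfb3 was not called (log2 fold change 0.05, SE 0.11, edgeR adjusted p = 0.725). Of the 20 tested ligands, receptors and Smads 4 rose and 5 fell, with a median of 0.00. Those that rose included Grem1, a secreted inhibitor of bone morphogenetic proteins, by 0.83, and Lrrc32, which tethers latent TGF-β to the cell surface, by 0.77. Of 13 TGF-β target genes 3 rose and 3 fell, with a median of 0.14. With reference gene factors 8 of them rose and 0 fell, and without BART mouse 37 5 rose. Over all tested genes 27.1% rose and 26.4% fell with the main scaling, so neither list stood out by its counts.

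Matrix genes showed single large changes. Timp1, an inhibitor of matrix metalloproteinases, rose from 3419, 3902 and 4879 CPM to 5059, 7612 and 12975 CPM, without overlap (log2 fold change 0.93, SE 0.14, edgeR adjusted p = 2.06e-06). Lox, which crosslinks collagen, rose by 0.58 (edgeR adjusted p = 0.0245), and by 0.42 without BART mouse 45 (adjusted p = 0.0872). Of 9 collagen and matrix genes 3 rose and 2 fell, against 27.1% and 26.4% of all tested genes, and 1 rose and 1 fell without BART mouse 45. The muscle factor Myod1 rose by 1.32 (SE 0.51, edgeR adjusted p = 0.0294), with overlap, and by 0.81 without BART mouse 45 (adjusted p = 0.156). Mb, the other tested muscle marker, was not called (log2 fold change 0.17). How much muscle in the specimens contributed to the matrix and chemokine values of BART mouse 45 was not tested.

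Counts of DNA repair genes are given by pathway, and differences between pathways were not tested. Of 17 tested genes of homologous recombination, which copies an intact sister strand, 10 rose and 1 fell, with a median of 0.29, and of 5 Fanconi anaemia genes, which clear crosslinks, 4 rose and 0 fell, with a median of 0.37. Brca1, which acts early in the repair of breaks by recombination, had 638, 732 and 898 CPM in BA and 972, 1104 and 1358 CPM in BART tumours, with no overlap (log2 fold change 0.58, SE 0.09, edgeR adjusted p = 1.96e-06). Fancd2, the protein marked when a crosslink is met, rose by 0.79, also without overlap. Fanca rose by 0.76. Of 7 genes of non-homologous end joining, which reseals broken ends directly, 4 fell and 0 rose, with a median of -0.21. Xrcc4, a partner of the sealing ligase, fell by 0.42, Xrcc5, the larger Ku subunit, by 0.28 and Prkdc, the kinase that Ku recruits, by 0.28. The last 2 of these were not called with reference gene factors, under which 1 end joining gene was lower and 2 were higher.

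The excision repair lists leaned downward with the main scaling. Of 21 base excision repair genes 1 rose and 7 fell, and of 21 nucleotide excision repair genes 3 rose and 8 fell. Over all tested genes 27.1% rose and 26.4% fell. Mismatch repair genes went both ways, with 5 of 13 higher and 6 lower. With reference gene factors the first 2 of these lists had 5 and 10 members higher and 3 and 3 lower. Mismatch repair had 6 higher and 2 lower under them. The direction of these lists therefore rests on the scaling. Msh3, of a mismatch recognition complex, fell by 0.34 without overlap. Msh4, which acts in meiotic recombination, rose from 0, 3.58 and 10.7 CPM to 13.4, 31.6 and 46.9 CPM, also without overlap (log2 fold change 2.47, SE 0.35, edgeR adjusted p = 6.1e-07). That rise stands on 0 to 7 counts per BA library and 9 to 28 per BART library. A rise from like numbers was seen in Il13ra2, a decoy receptor of interleukin-13, by 1.83.

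Damage signalling and cell cycle genes also changed. Of 22 genes of damage checkpoint signalling 9 rose and 4 fell, with a median of 0.07, and with reference gene factors 15 rose and 1 fell. Atm, the kinase that senses breaks, rose by 0.49 (SE 0.09, edgeR adjusted p = 2.26e-05), with 8 of 9 BART tumours above every BA tumour. Pttg1, which encodes securin, went from 2251, 2665 and 3044 CPM to 4091, 4731 and 5961 CPM without overlap (log2 fold change 0.85, SE 0.07, edgeR adjusted p = 3.7e-11). Cdc25c, the phosphatase that starts mitosis, rose by 0.53, Lig1, the ligase of replication, by 0.39 and Cenpf, a kinetochore protein, by 0.34. Pcna, the sliding clamp of replication, fell by 0.29, and by 0.14 with reference gene factors (adjusted p = 0.148).

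Proteasome subunits were examined as a further list, drawn up from the panel's symbols. Of 44 tested members 19 rose and 5 fell, with a median of 0.12, and with reference gene factors 31 rose and 0 fell. Psmc5, an ATPase of the regulatory particle, had 2525, 2727 and 2905 CPM in BA and 3321, 3728 and 4423 CPM in BART tumours, with no overlap (log2 fold change 0.50, SE 0.05, edgeR adjusted p = 3.89e-09). It was named after its values were seen. Of 14 integrin genes, another such list, 2 rose and 8 fell, with a median of -0.30, and with reference gene factors 4 rose and 5 fell.

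To set these changes beside those of radiation without bintrafusp alfa, RT was compared with control in the same fit. The 2 comparisons share no mice. With the isotype antibody 432 of 1038 genes were called (41.6%), 213 higher (20.5%) and 219 lower (21.1%), and with reference gene factors 422 were higher and 79 lower. Called in both settings were 310 genes, 299 in the same direction and 11 in opposite directions, which is 53.9% of the calls with bintrafusp alfa and 69.2% of those without it in the same direction. Across the 1038 genes, which are not independent, Pearson's r of the log2 fold changes was 0.80 and Spearman's rho 0.71. Oasl1 changed by 2.68 with bintrafusp alfa and 2.76 without it, Ccl2 by 2.56 and 2.33, Cdkn1a by 1.45 and 1.39 and H2-Ab1 by -3.16 and -2.81. For these 4 genes the difference between the settings did not pass the test (edgeR adjusted p of 0.769, 0.73, 0.925 and 0.653).

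**Figure D4:**
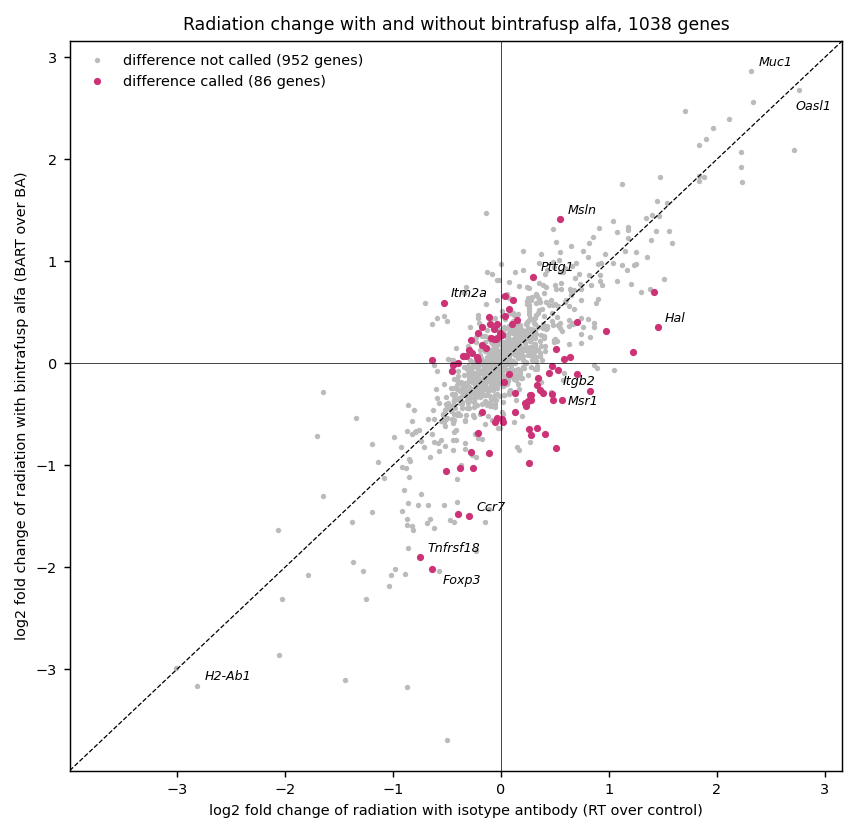
Each point is one of 1038 genes, placed by its log2 fold change of RT over control (horizontal axis) and of BART over BA (vertical axis), with the dashed line where both are equal. The 86 genes whose 2 changes differ by the edgeR test are in magenta, among them Msln above the line and Hal, Foxp3 and Msr1 below it.

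The test of that difference called 86 genes (8.29%), 35 with a larger or more positive change under bintrafusp alfa (3.37%) and 51 with a smaller or more negative one (4.91%). Among 245 genes called only with bintrafusp alfa, the difference was called for 41. Of the 17 T cell markers 14 fell with bintrafusp alfa and 4 without it, at medians of -1.61 and -0.81. For Cd2 the changes were -2.31 and -1.25 and for Cd3e -2.03 and -0.58, and neither difference passed the test (edgeR adjusted p of 0.235 and 0.18). For Prf1 the changes were -1.84 and -0.23 and the difference did not pass the test (edgeR adjusted p = 0.16). Starting levels were lower without bintrafusp alfa. Prf1 had 0.76 to 14.04 CPM in control and 2.01 to 12.2 in RT tumours, against 27.9 to 169 in BA tumours. The T cell markers summed to a median of 167 CPM in control and 354 CPM in BA tumours. Whether the lower starting levels limited these falls was not tested, and the contrasts are not read here as a weaker response to radiation.

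Single immune genes did differ. The log2 fold change of Foxp3 was -2.02 with bintrafusp alfa and -0.64 without it, the latter not called (difference -1.38, SE 0.36, edgeR adjusted p = 0.0125), that of Tnfrsf18 was -1.90 and -0.75, and that of Ccr7 -1.50 and -0.29, again not called without it. These genes had higher ranges in BA than in control tumours. Foxp3 had 14.1 to 30.5 CPM in BA and 3.76 to 10.2 in control tumours. Tnfrsf18 had 44.2 to 111 and 22.9 to 45.3 CPM, and Ccr7 32.8 to 81.7 and 17.9 to 48.2. After radiation Foxp3 had 2.9 to 8.94 CPM in BART and 0.67 to 7.74 in RT tumours. Tnfrsf18 had 12.4 to 26.6 and 12.9 to 37.5 CPM, and Ccr7 11.1 to 26.6 and 14.6 to 49.4. BART and RT tumours were not tested against each other. Itgb2 and Msr1 went apart in sign. Itgb2 changed by -0.30 and 0.47 (difference -0.77, SE 0.12, edgeR adjusted p = 0.000159). Msr1, the macrophage scavenger receptor, had 338, 390 and 520 CPM in BA and 276, 310 and 372 CPM in BART tumours (log2 fold change -0.35), while with the isotype antibody it rose by 0.48 (difference -0.83, SE 0.13, edgeR adjusted p = 0.000138). Without radiation Itgb2 had 1463 to 1879 CPM in BA and 918 to 1308 in control tumours, and Msr1 had 236 to 406 in control tumours. With reference gene factors the falls of Itgb2 and Msr1 under bintrafusp alfa were not called. Of the 4 general leukocyte genes 3 fell with bintrafusp alfa and 3 rose without it. The difference was called negative for 3 of them, against 4.91% of all tested genes.

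**Figure D5:**
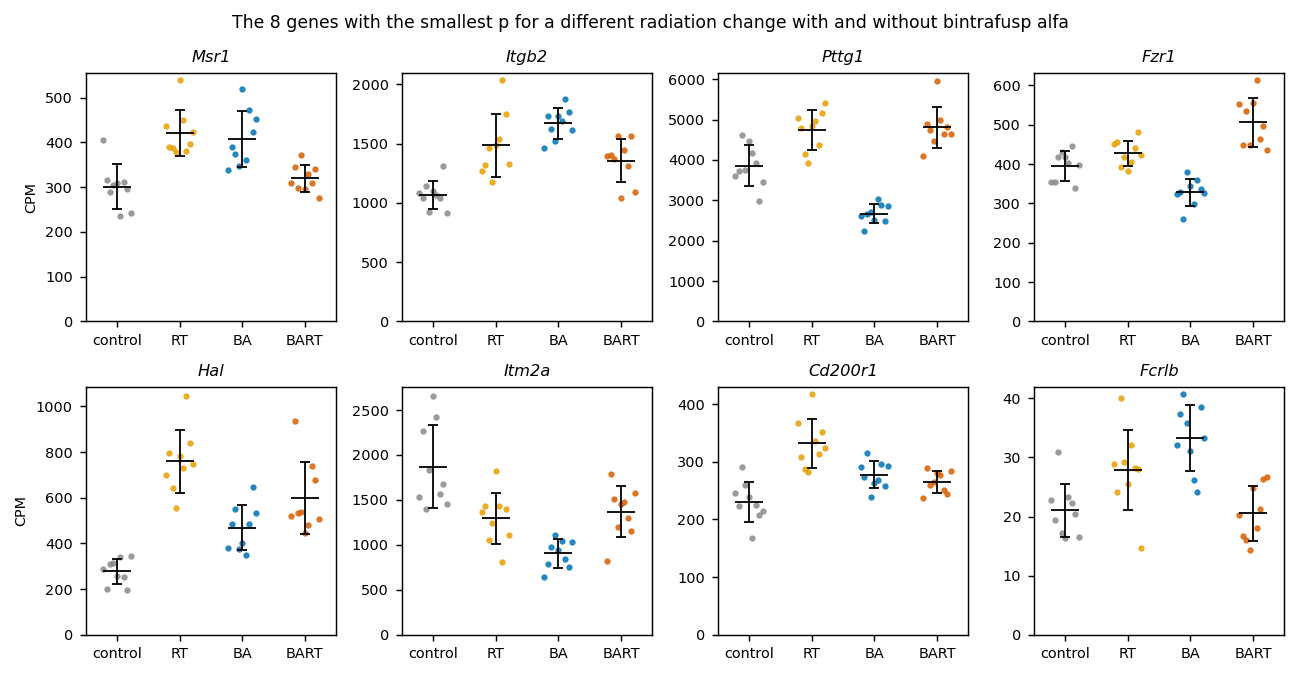
Each panel plots the CPM of one gene on a linear axis from 0 in the 4 groups, with one point per tumour and the mean with its SD in black (n = 9). Msr1 was higher in RT than in control tumours and lower in BART than in BA tumours, and Pttg1 rose more with bintrafusp alfa, from a lower starting level.

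The difference was called negative for 3 of 9 monocyte and macrophage markers and 4 of 11 neutrophil markers, against 4.91% of all tested genes. With and without bintrafusp alfa the log2 fold change of Fcgr3 was -0.69 and -0.21, that of Cd14 -0.58 and 0.02 and that of the macrophage elastase gene Mmp12 -0.65 and 0.26, and for these 3 genes the second value was not called. The leukocyte gene Cd48 changed by -0.37 and 0.25. Itgam, the CD11b chain of myeloid integrins, named after its values were seen, rose by 0.32 with bintrafusp alfa and by 0.97 without it. Cd200r1, an inhibitory myeloid receptor, did not pass the test with bintrafusp alfa (-0.07, edgeR adjusted p = 0.483) and rose by 0.53 without it. Fcrlb, an intracellular Fc receptor-like protein, changed by -0.69 and 0.40. Hal, the histidine-degrading enzyme, had 350, 483 and 645 CPM in BA and 447, 533 and 935 CPM in BART tumours, and rose by 0.35 and 1.45. The first of these calls was lost with BA and BART mice only (adjusted p = 0.0522) and with any 1 of 7 mice left out, at an adjusted p of up to 0.109.

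In the proliferation list the difference was called for 2 of 5 members, both with a more positive change under bintrafusp alfa. Over all tested genes it was called in that direction for 3.37%. For Pcna it did not pass the test (edgeR adjusted p = 0.955). Pttg1 rose by 0.85 with bintrafusp alfa and 0.30 without it (difference 0.55, SE 0.10, edgeR adjusted p = 0.00128). Fzr1, an activator of the anaphase-promoting complex, had 260, 329 and 381 CPM in BA and 437, 498 and 613 CPM in BART tumours, and rose by 0.62, against 0.11 without bintrafusp alfa, which did not pass the test (edgeR adjusted p = 0.21). The log2 fold change of Lig1 was 0.39 and -0.04, that of Cdc25c 0.53 and 0.08 and that of Cenpf 0.34 and -0.07, and the second value was not called for these 3 genes. Msln rose by 1.41 and 0.55. Itm2a, a membrane protein of differentiating muscle and thymocytes, had 640, 945 and 1114 CPM in BA and 824, 1459 and 1792 CPM in BART tumours, and changed by 0.60 with bintrafusp alfa and by -0.53 without it (difference 1.13, SE 0.20, edgeR adjusted p = 0.000789). Control tumours had 1403 to 2661 CPM of Itm2a and RT tumours 814 to 1820, so the opposite signs go with different starting levels and overlapping levels after radiation. Pttg1 also started from different levels, with a mean of 2671 ± 241 CPM in BA and 3853 ± 510 CPM in control tumours (SD, n = 9).

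The amplicons were short stretches of these genes on GRCm38. Those of Oasl1 (chromosome 5, 114928141 to 114928230), Ccl2 (11, 82037010 to 82037104), Muc1 (3, 89231104 to 89231198), Kynu (2, 43581365 to 43581459), Ctla4 (1, 60912624 to 60912723) and Pttg1 (11, 43424761 to 43424857) lay inside a coding exon. Those of Foxp3 (X, 7593514 to 7593608), H2-Ab1 (17, 34269137 to 34269231) and Pdcd1lg2 (19, 29410966 to 29411058) lay in untranslated exon sequence. That of Ifit3 (19, 34588195 to 34588297) overlapped a coding exon.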

How the data were processed

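RNA of 36 tumours was read with 2 targeted amplicon panels. The values analysed were raw whole-number counts of each amplicon as deposited. The sources do not say whether reads or barcodes were counted, or with which aligner. The regularized log2 values that the authors deposited, made with DESeq2 per the submitters' processing notes, served 1 alternative. Genomic DNA control rows (2.32e-05% of counts) were left out. Position columns are headed GRCh38, but amplicons of 1223 of 1224 genes lay inside the named mouse gene on GRCm38, and 1 partly. Genes on both panels were taken from the panel with the larger total.

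edgeR 4.0.16 (R 4.3.3) was run separately for each panel over all 4 groups, with TMM factors, the default expression filter and robust quasi-likelihood F tests (two-sided). Adjustment was over 1038 genes. SE was taken as the size of the log2 change over the root of F. The fit was tested on simulated data. Pairs of mice within a group varied beyond counting error (chi-square per degree of freedom at least 5.96). TMM gives changes relative to most genes of a panel, and few counts limit rare transcripts. DESeq2 1.42.0 and limma 3.58.1 served alternatives.

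Groups, lists and tests were chosen with earlier results of these data known. Genes were named by rule: the 15 largest and 15 smallest called changes at a mean of 10 CPM or more in either group, up to 4 called genes of each list, the 8 smallest p of the difference, and genes of the drug's targets. Oas3, Oas1a, Cd8a, Gzmb, Psmc5, Mmp9 and Itgam were added after their values were seen.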

Additional observations from a re-analysis of the deposited data

Results flagged for a closer look

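The following values were set apart from the rest of their group of 9 mice by Dixon's criterion, applied to untransformed CPM. Its rate of about 1 in 20 groups flagged by chance holds for normally distributed values, which CPM need not be. Many of the genes were named for their changes, and several were high together in the same mouse. The share flagged is therefore not to be read against that rate. Of 196 groups examined 35 were flagged (17.9%), 30 of them in BART tumours.

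BART mouse 40 accounted for 19, all as the highest value. Its class II genes stood at 1747 CPM for H2-Aa (next highest 518), 718 for H2-Ab1, 5816 for Cd74 and 201 for Ciita. T cell and costimulatory genes stood at 11.9 CPM for Cd3d, 17.4 for Cd3e, 13.4 for Cd8a and 25.3 for Icos. Cytotoxic genes stood at 108 CPM for Prf1 (next highest 20.5), 579 for Gzmb, 176 for Nkg7, 23.3 for Klrd1 and 22.9 for Ncr1. The others were Cd274 at 465 CPM, Pdcd1lg2 at 48.2, Cd83 at 115, Igkc at 49.2, Ctsg at 28.3 and Ccr2 at 880.

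BART mouse 45 accounted for 8. They were Ccl2 at 9272 CPM (next highest 5065), Ccl7 at 11778, Ccl3 at 813, Ccl4 at 728, Cxcl5 at 428, Lox at 8859, Cd14 at 614 and the muscle factor Myod1 at 393. Among other BART mice, Trp53 was 2992 CPM in mouse 42, Pttg1 5961 in mouse 41 and Xrcc4 887 in mouse 37. Among BA mice, mouse 13 had 25.9 CPM of Ppbp and 101 of Myod1, mouse 15 had 246 CPM of Nkg7 and 41.4 of Ncr1, and mouse 11 had 23.5 CPM of Irf4.

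The change with radiation differed between mice with bintrafusp alfa and mice with the isotype antibody for 21 named genes (edgeR adjusted p below 0.05 for each). The log2 difference, with bintrafusp alfa minus without, was positive for Itm2a (1.13), Msln (0.86), Pttg1 (0.55), Fzr1 (0.51), Cdc25c (0.45), Lig1 (0.43) and Cenpf (0.41). Among lymphocyte genes it was -1.38 for Foxp3, -1.20 for Ccr7 and -1.15 for Tnfrsf18. Among myeloid and general leukocyte genes it was -1.10 for Fcrlb, -0.91 for Mmp12, -0.83 for Msr1, -0.77 for Itgb2, -0.62 for Cd48, -0.65 for Itgam, -0.60 for Cd14, -0.59 for Cd200r1, -0.48 for Fcgr3 and -0.43 for Ptprc. For the enzyme gene Hal it was -1.10.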

How the results depend on the processing

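Factors from the reference genes gave 472 genes higher and 147 lower, in place of 281 and 274, and without bintrafusp alfa 422 and 79 in place of 213 and 219. The cause was not tested. Under them 8 named genes lost their call (Tgfb1, Xrcc5, Prkdc, Ptprc, Msr1, Itgb2, Cd48 and Pcna), Tgfb3 gained one (0.24) and Cd200r1 turned to 0.13. Other scalings, DESeq2, no filter, BA and BART mice only, the other panel, thinning and the regularized log values called between 512 (thinned) and 579 genes (no filter). Leaving out 1 mouse gave 514 (without BA mouse 11) to 570 (without BART mouse 37). The difference was called for 61 (reference genes) to 111 genes (DESeq2), and for 71 to 106 with 1 mouse left out. Tgfb3 was -0.015 on the other panel and, with 1 mouse left out, between -0.0017 and 0.11. With regularized log values Igkc (-1.23) and Myod1 (0.29) lost their call and Gzmb (-0.70) gained one. With BA and BART mice only, Hal lost its call (adjusted p = 0.0522), as it did without BA mouse 10, 13, 14 or 15 or BART mouse 38, 43 or 44. Without BA mouse 14, Lox (0.51) and Myod1 (1.21) lost theirs, and without BA mouse 11 Myod1 (1.20). No paired analysis was possible because mouse numbers are not shared between groups.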
